A study of Mus musculus with 12 samples.

Results

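DEAD-box and DEAH-box proteins are ATP-driven RNA helicases named after a short amino acid motif, and the genes described here are the protein-coding mouse genes whose symbols begin with Ddx or Dhx and a number. There were 53 such genes among 21887 protein-coding genes. Binding of BRD2 and BRD3 at these genes was read from ChIP-seq peak lists of RAW264.7 cells, a mouse macrophage line that can form osteoclasts and whose source the labels give as bone marrow. Cells had 4 h of RANKL (50 ng/ml) together with the BET inhibitor I-BET (500 nM), RANKL alone or I-BET alone, or were untreated. There was 1 library for each antibody and treatment and 1 peak list from each. A gene was called in a list when a region of that list lay within 1 kb of either end of the gene.

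Each helicase family member couples ATP hydrolysis to the remodelling of RNA or of RNA-protein complexes. Some work in the spliceosome, some in the nucleolus on ribosome precursors, others in mRNA export, translation and decay, and a few sense viral RNA. BRD2 and BRD3 are BET proteins, which bind acetylated histones through bromodomains, mostly at active promoters and enhancers. I-BET occupies those bromodomains, and RANKL drives macrophage-lineage cells towards osteoclasts.

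The sequences at the starts of 8 helicase genes are shown, each with a start covered by a region in more than 1 list. These genes include members called in many lists and members whose calls differed between treatments, each with 1 library and no test. Ddx25, called in 5 lists like Ddx39b, is not shown, and no region covered its start. Ddx27, Ddx59, Dhx34 and Dhx37, whose starts were covered in all 4 BRD3 lists, are not shown either. Each sequence runs from 250 bases before to 50 bases after an annotated start, in RefSeq, build GRCm38.p6, along the strand of the gene. Capitals mark any of 7 motifs searched on both strands. These were the E-box CACGTG, the ETS motif CCGGAAG, the CRE TGACGTCA, the CCAAT box CCAAT, the GC box GGGCGG, the PU.1 box GAGGAAGT and a palindromic element of 10 letters. The Ddx39b start (chr17:35241496-35241795, plus strand) was covered in all 4 BRD3 lists and in BRD2 under I-BET. Dhx9 (chr1:153487611-153487910, minus strand) was covered in BRD2 under RANKL and in every BRD3 list but the untreated one. Ddx42 (chr11:106216676-106216975, plus strand), Ddx41 (chr13:55536609-55536908, minus strand) and Ddx10 (chr9:53248063-53248362, minus strand) were covered in all 4 BRD3 lists. Ddx54 (chr5:120612880-120613179, plus strand) was covered in every BRD3 list but the untreated one, and Ddx46 (chr13:55634749-55635048, plus strand) in the 2 BRD3 lists without I-BET. Ddx1 (chr12:13249125-13249424, minus strand) was covered in the 2 BRD2 lists with I-BET.
Ddx39b: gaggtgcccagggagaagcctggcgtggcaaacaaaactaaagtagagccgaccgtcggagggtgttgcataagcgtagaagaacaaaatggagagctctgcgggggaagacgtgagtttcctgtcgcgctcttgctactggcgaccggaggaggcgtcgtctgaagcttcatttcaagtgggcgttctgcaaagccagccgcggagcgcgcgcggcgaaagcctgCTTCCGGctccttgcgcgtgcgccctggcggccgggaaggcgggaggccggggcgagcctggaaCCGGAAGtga
Dhx9: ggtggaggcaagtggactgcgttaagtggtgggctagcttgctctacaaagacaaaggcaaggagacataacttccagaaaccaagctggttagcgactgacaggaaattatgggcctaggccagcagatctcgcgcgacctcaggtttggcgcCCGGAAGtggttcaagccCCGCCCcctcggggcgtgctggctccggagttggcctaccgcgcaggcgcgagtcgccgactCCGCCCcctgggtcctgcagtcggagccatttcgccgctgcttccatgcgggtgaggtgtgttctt
Ddx42: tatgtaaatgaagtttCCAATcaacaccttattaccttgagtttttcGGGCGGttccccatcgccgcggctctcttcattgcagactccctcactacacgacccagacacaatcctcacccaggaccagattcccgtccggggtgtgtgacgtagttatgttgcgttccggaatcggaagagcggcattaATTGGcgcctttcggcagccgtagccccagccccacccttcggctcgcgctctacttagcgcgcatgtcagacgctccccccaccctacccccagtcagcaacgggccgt
Ddx41: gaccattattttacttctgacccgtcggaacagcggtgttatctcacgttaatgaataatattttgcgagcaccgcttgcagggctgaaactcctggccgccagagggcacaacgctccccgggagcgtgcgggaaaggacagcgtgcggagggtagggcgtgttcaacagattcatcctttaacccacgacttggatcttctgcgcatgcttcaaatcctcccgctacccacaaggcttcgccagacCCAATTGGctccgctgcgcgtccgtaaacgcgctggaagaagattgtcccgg
Ddx46: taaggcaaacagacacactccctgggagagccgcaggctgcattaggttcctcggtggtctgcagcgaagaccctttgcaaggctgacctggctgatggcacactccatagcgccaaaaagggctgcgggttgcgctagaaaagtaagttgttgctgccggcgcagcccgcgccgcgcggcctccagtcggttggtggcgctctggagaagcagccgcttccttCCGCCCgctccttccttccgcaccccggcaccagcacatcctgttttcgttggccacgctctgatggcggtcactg
Ddx10: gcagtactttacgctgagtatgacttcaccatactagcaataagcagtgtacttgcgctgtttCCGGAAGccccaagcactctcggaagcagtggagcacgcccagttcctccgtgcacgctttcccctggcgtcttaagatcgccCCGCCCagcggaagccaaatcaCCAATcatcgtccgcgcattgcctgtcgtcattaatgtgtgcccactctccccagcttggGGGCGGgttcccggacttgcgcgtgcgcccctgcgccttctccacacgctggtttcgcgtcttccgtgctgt
Ddx54: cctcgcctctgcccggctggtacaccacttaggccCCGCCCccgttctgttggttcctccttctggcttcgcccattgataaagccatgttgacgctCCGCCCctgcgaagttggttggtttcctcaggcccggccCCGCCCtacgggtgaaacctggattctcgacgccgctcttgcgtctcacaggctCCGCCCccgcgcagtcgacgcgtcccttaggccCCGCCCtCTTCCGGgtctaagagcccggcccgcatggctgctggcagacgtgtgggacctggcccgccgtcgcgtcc
Ddx1: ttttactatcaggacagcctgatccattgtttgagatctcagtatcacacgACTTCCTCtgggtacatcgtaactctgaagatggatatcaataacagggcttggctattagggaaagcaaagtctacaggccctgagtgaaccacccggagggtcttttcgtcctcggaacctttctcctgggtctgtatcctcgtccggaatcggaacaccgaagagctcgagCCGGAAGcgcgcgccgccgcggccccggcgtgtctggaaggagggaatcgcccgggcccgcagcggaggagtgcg

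In the full lists, BRD3 was called at about the same number of helicase genes under every treatment. With the BRD3 lists shortened to equal length by score, the counts were 10 with RANKL and I-BET, 5 with RANKL, 13 with I-BET and 7 in untreated cells. The shares of all genes in those shortened lists were 9.54%, 7.98%, 9.73% and 8.57%. The I-BET list was the shortest and stayed whole. The full lists gave 13 of 53 with RANKL and I-BET together (24.5%, exact 95% binomial interval 13.8% to 38.3%). They gave 13 with RANKL, 13 with I-BET and 12 in untreated cells (22.6%, 12.3% to 36.2%). Over all protein-coding genes the called shares in the same order were 11.9%, 13.7%, 9.73% and 14.0%. The helicase share under RANKL with I-BET and under I-BET had an interval that began above the share of all genes. For RANKL the lower bound of 13.8% was close to the 13.7% of all genes, and the untreated interval included its 14.0%. BRD2 was called at 1 helicase gene with RANKL and I-BET (1.89%, 0.0478% to 10.1%), 10 with RANKL (18.9%, 9.44% to 32.0%), 5 with I-BET (9.43%, 3.13% to 20.7%) and 2 in untreated cells (3.77%, 0.46% to 13.0%). The corresponding shares of all genes were 0.978%, 6.21%, 3.79% and 2.26%. The BRD2 interval for RANKL also began above its share of all genes, and the other BRD2 intervals included theirs. Shortened to equal length, the BRD2 lists held 1, 1, 1 and 0 helicase genes in that order, against 0.978%, 0.877%, 0.832% and 0.85% of all genes. The full BRD2 lists differed in length, with 245, 1716, 1067 and 578 regions in that order, and the BRD3 lists held 2842, 3840, 2232 and 3668. Intervals cover counting error only, the lists give no read depth, and with 1 library in each group no difference between treatments has a replicate error or a test.

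**Figure D1:**
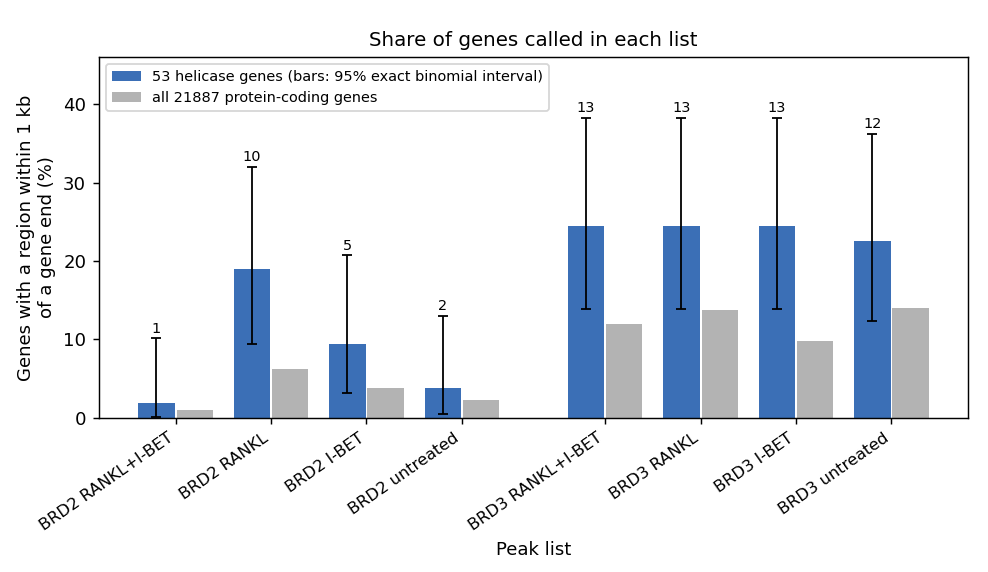
Share of helicase genes (blue, with the exact 95% binomial interval and the count above it) and of all protein-coding genes (grey) that had a region within 1 kb of a gene end, in percent, for each peak list. The 4 BRD3 bars of helicase genes stand at 22.6% to 24.5%, and the BRD2 bars run from 1.89% with RANKL and I-BET to 18.9% with RANKL.

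The helicase genes with BRD2 and those with BRD3 overlapped in part. In all, 15 of 53 had a region in at least 1 BRD2 list and 15 in at least 1 BRD3 list, against 8.84% and 17.4% of all genes. Those in both groups were 4 (background 5.03%), namely Ddx25, Ddx39b, Dhx9 and Dhx15, and 11 had BRD2 alone (background 3.81%) and 11 BRD3 alone (background 12.3%). That is 26.7% of the helicase genes with BRD2 (7.79% to 55.1%) and 26.7% of those with BRD3, whereas 56.9% of all genes with BRD2 also had BRD3 in some list and 29.0% of all genes with BRD3 had BRD2. Within a treatment, BRD2 and BRD3 shared 0 helicase genes with RANKL and I-BET, 1 (Dhx9) with RANKL, 2 (Ddx25 and Ddx39b) with I-BET and 0 in untreated cells. Of all genes with BRD2, the shares that had BRD3 under the same treatment were 31.3%, 43.8%, 26.5% and 51.4%. The counts of helicase genes with BRD2 behind these overlaps were 1, 10, 5 and 2, and their exact intervals reach up to 97.5%, 44.5%, 85.3% and 84.2%, each of which includes the share of all genes. Altogether 26 of 53 helicase genes were called in at least 1 of the 8 lists (49.1%, 35.1% to 63.2%), against 21.2% of all genes.

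BRD3 calls recurred across treatments more often than BRD2 calls, at helicase genes and over all genes alike. The BRD2 lists were shorter, with 245 to 1716 regions against 2232 to 3840 for BRD3. Short lists leave less room for recurrence, and the part of list length was not tested. Of the 15 helicase genes with BRD3, 14 were called in 2 or more BRD3 lists (93.3%, 68.1% to 99.8%) and 9 in all 4 (60.0%, 32.3% to 83.7%), against 77.6% and 44.1% of all genes with BRD3. Among all protein-coding genes 13.5% were called in 2 or more BRD3 lists and 7.65% in all 4. Of the 15 with BRD2, 3 were called in 2 or more BRD2 lists (3 of 15, 4.33% to 48.1%) and 0 in all 4, against 35.5% of all genes with BRD2 called in 2 or more. The shares of all protein-coding genes were 3.13% for 2 or more BRD2 lists and 0.224% for all 4. Each interval for helicase genes included the share of all genes with that antibody. The 9 genes called in all 4 BRD3 lists were Ddx10, Ddx25, Ddx27, Ddx39b, Ddx41, Ddx42, Ddx59, Dhx34 and Dhx37. The 3 genes called in more than 1 BRD2 list were Ddx1, Ddx6 and Ddx23. At each of the 18 helicase genes with more than 1 region, all of its regions overlapped in a common stretch, which ran from 345 bp at Ddx27 to 1520 bp at Ddx6. Such overlap was general. Among all genes called under RANKL and in untreated cells, regions overlapped at 2400 of 2403 for BRD3 and 266 of 267 for BRD2. Between BRD2 and BRD3 under I-BET they overlapped at 212 of 220.

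**Figure D2:**
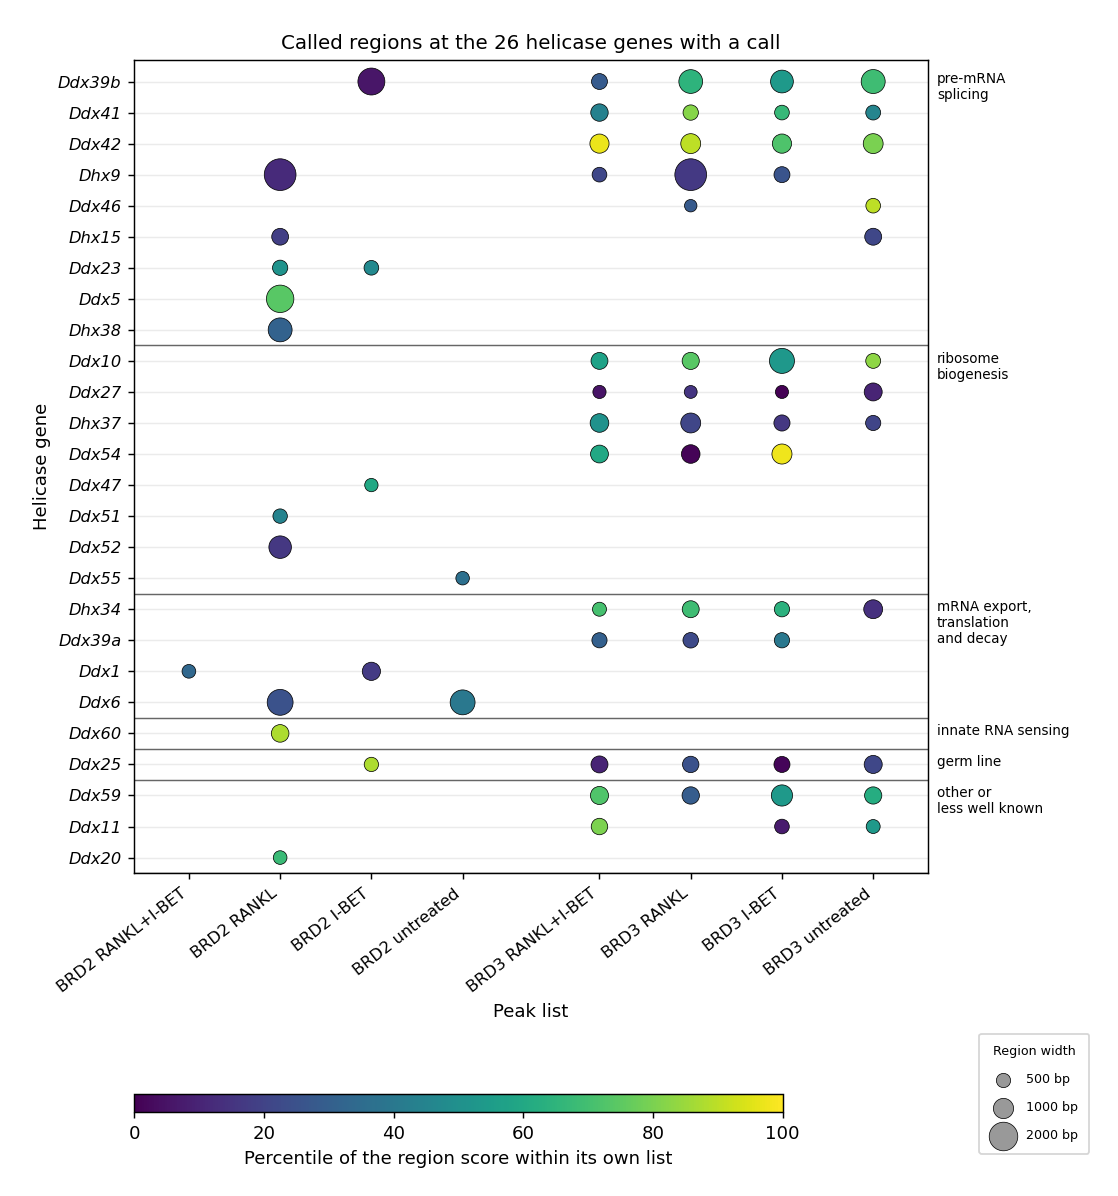
Regions called at the 26 helicase genes with at least 1 call, by gene (rows, grouped by role) and peak list (columns); circle area gives the width of the region in bp and colour the percentile of its score within its own list. Rows of BRD3 circles run through all 4 treatments at 9 genes, while 12 of the 15 genes with BRD2 have a single BRD2 circle.

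Helicases of pre-mRNA splicing held the largest number of calls. Of 13 such genes, 9 were called in at least 1 list, 6 with BRD2 and 6 with BRD3, against 21.2%, 8.84% and 17.4% of all genes. Ddx39b, which encodes a helicase of spliceosome assembly and mRNA export, had a BRD3 region in every treatment. Its widths were 619 bp with RANKL and I-BET, 1382 bp with RANKL, 1272 bp with I-BET and 1411 bp in untreated cells. The narrowest was thus the one with both agents. BRD2 was called at Ddx39b under I-BET alone, in a region of 1781 bp (chromosome 17, 35241091 to 35242871) that covered the start shown above. The score of this BRD2 region stood at the 5.72nd percentile. The call was lost in the top 50% of the list by score and in the list shortened to equal length.

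Ddx42 encodes a helicase associated with the U2 snRNP, and its BRD3 regions varied little in extent, measuring 900 bp with RANKL and I-BET, 970 bp with RANKL, 908 bp with I-BET and 969 bp in untreated cells. Their scores were 658, 329, 86.7 and 120, which placed them between the 71.9th (I-BET) and the 97.0th (both agents) percentile of their lists. Scores are the authors' own values and were read only within a list. The regions spanned the starts of both Ddx42 and Ccdc47, its neighbour on the other strand. Ddx41, whose product works in the spliceosome and also senses nucleic acids in myeloid cells, had BRD3 regions of 745 bp, 577 bp, 529 bp and 541 bp in the same order of treatments, with midpoints within 104 bp of each other.

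Ddx46 was the only helicase gene called by BRD3 in both lists without I-BET and in neither list with it, a pattern held by 1.39% of all genes. The opposite pattern, both lists with I-BET and neither without, was held by 0 helicase genes and 0.228% of all genes. Ddx46 encodes the helicase that helps the U2 snRNP settle on the branch site of an intron. Its region was 380 bp wide under RANKL and 526 bp in untreated cells (chromosome 13, 55634697 to 55635222), where its score stood at the 90.2nd percentile of the list. The RANKL region stood at the 28.0th percentile. It was lost in the top 50% of the list by score and in the list shortened to equal length, so the pattern held for the full lists only. With RANKL and I-BET the nearest BRD3 region lay 11426 bp from an end of the gene and with I-BET 11508 bp.

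Dhx9 encodes a helicase that unwinds double-stranded RNA and binds transcription complexes, and its regions had the widest range of widths among the helicase genes. Under RANKL, BRD2 had a region of 2471 bp (chromosome 1, 153487330 to 153489800) and BRD3 one of 2472 bp (153487383 to 153489854), nearly the same stretch. BRD3 measured 531 bp with RANKL and I-BET and 624 bp with I-BET. In untreated cells neither antibody had a region there, the nearest BRD3 region being 923625 bp away. The narrow regions were centred within 56 bp of the annotated start, and the wide ones reached upstream, with midpoints 905 bp (BRD2) and 958 bp (BRD3) before it. The scores of the wide regions stood at the 11.8th percentile for BRD2 and the 16.7th for BRD3.

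Dhx15, whose product takes spent spliceosomes apart, had BRD2 under RANKL (692 bp) and BRD3 in untreated cells (703 bp), and these regions overlapped by 511 bp. It was the only helicase gene called in exactly 1 BRD3 list, against 3.89% of all genes. Ddx23, which encodes a component of the U5 snRNP, had BRD2 under RANKL (571 bp) and under I-BET (528 bp) and no BRD3 call. Ddx5, a splicing and transcription coregulator, and Dhx38, a helicase of the catalytic steps of splicing, had BRD2 under RANKL alone. The Ddx5 region was 1846 bp wide and held the start of its neighbour Cep95, and the Dhx38 region of 1403 bp was centred 3 bp from the start of Txnl4b. The splicing helicases without a call were Ddx17, Dhx8, Dhx16 and Dhx35.

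Of 16 ribosome biogenesis helicases, 8 were called, 4 with BRD2 and 4 with BRD3, against 21.2%, 8.84% and 17.4% of all genes. Those with both antibodies were 0 of 16, against 5.03% of all genes. The BRD3 genes were Ddx10, Ddx27, Ddx54 and Dhx37. Ddx10 had regions of 702 bp with RANKL and I-BET, 721 bp with RANKL, 1534 bp with I-BET and 545 bp in untreated cells. The I-BET region was the widest at this gene and reached farther into it, with its midpoint 442 bp downstream of the start. Ddx27 regions were low in score, with percentiles of 15.6 or less, and ran from 406 bp under RANKL to 792 bp in untreated cells, while the I-BET region stood near the bottom of its list at a percentile of 0.0896.

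Ddx54 had BRD3 regions of 781 bp with RANKL and I-BET, 847 bp with RANKL and 987 bp with I-BET, and none in untreated cells, where the nearest lay 176505 bp away. The regions at Ddx54 also held the start of Rita1. Their scores stood at very different places in their lists, at the 60.1st percentile with RANKL and I-BET, the 1.11th with RANKL and the 97.3rd with I-BET. Dhx37 was called in all treatments with 852 bp, 974 bp, 638 bp and 565 bp in the same order as before, ending with untreated cells. The BRD2 genes of this group were each called once. Ddx51 (511 bp, shared with Noc4l) and Ddx52 (1244 bp) were called under RANKL, Ddx47 (437 bp) under I-BET and Ddx55 (448 bp) in untreated cells. The other 8, Ddx18, Ddx21, Ddx24, Ddx31, Ddx49, Ddx50, Ddx56 and Dhx33, had no call.

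Among 10 helicases of mRNA export, translation and decay, 4 were called in some list, against 21.2% of all genes. Dhx34, a factor of nonsense-mediated mRNA decay, had BRD3 in all treatments, with 480 bp for RANKL and I-BET, 706 bp for RANKL, 572 bp for I-BET and 875 bp in untreated cells. Ddx39a, a close relative of Ddx39b that acts in mRNA export, had BRD3 regions of 564 bp, 591 bp and 571 bp under the 3 treatments and none in untreated cells, where the nearest was 277762 bp away. Ddx1, which encodes a helicase of the tRNA ligase complex, had BRD2 under both treatments with I-BET and neither without it, a pattern of 0.0548% of all genes. Its regions were 461 bp with RANKL and I-BET and 814 bp with I-BET, at the 33.5th and 17.2nd percentile of score in their lists.

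Ddx6, whose product represses and decaps mRNAs in P-bodies, was called by BRD2 with 1642 bp under RANKL and 1520 bp in untreated cells, in regions inside the gene. Under I-BET a BRD2 region of 853 bp lay inside both of these, but 1292 bp from the gene end and so beyond the 1 kb limit. Ddx6 was thus called by the rule in both lists without I-BET and neither with it (0.484% of all genes), although BRD2 lay there under I-BET too, and with RANKL and I-BET no BRD2 region was within 7876187 bp. Ddx3x, Ddx3y, Ddx19a, Ddx19b, Dhx29 and Dhx36 had no call.

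The remaining helicases fell into small groups, of which 1 of 3 sensors of viral RNA, 1 of 3 germ line helicases, 0 of 2 mitochondrial helicases and 3 of 6 others were called, against 21.2% of all genes. Of 3 sensors of viral RNA, Ddx60, an interferon-induced antiviral factor, had BRD2 under RANKL in a region of 760 bp at the 87.6th percentile, and Ddx58 (RIG-I) and Dhx58 (LGP2) had none. Of 3 germ line helicases, Ddx4 and Ddx43 had none. Ddx25, a testis helicase, was called by BRD3 in all 4 treatments and by BRD2 under I-BET, but these regions lay within the neighbouring gene Pus3. Their midpoints were 966 bp to 1172 bp upstream of the Ddx25 start and 876 bp to 1082 bp downstream of the Pus3 start. Ddx59, a less studied family member, had BRD3 in all 4 treatments with 803 bp, 738 bp, 1102 bp and 728 bp, ending with untreated cells. Ddx11, a DNA helicase of sister chromatid cohesion, had BRD3 with RANKL and I-BET (666 bp), with I-BET (526 bp) and in untreated cells (478 bp), but not under RANKL, where the nearest region was 238050 bp away. Ddx20, a component of the SMN complex, had BRD2 under RANKL (458 bp). Dhx32, Dhx40 and Dhx57, and the mitochondrial RNA helicase genes Ddx28 and Dhx30, had no call.

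Set side by side, the treatments moved few BRD3 calls. RANKL against untreated cells, the comparison that asks what the cytokine does to BET binding, shared 10 genes. Dhx9, Ddx39a and Ddx54 were called under RANKL alone, and Ddx11 and Dhx15 in untreated cells alone. Of the 12 untreated genes, 83.3% (51.6% to 97.9%) kept a call under RANKL, against 78.4% of all genes. I-BET against untreated cells, which asks how the inhibitor alters BET binding, also shared 10 genes. Dhx9, Ddx39a and Ddx54 were again called under treatment alone, and Ddx46 and Dhx15 in untreated cells alone. The retained share of 83.3% had an interval of 51.6% to 97.9%, and 60.9% of all genes with an untreated call kept one under I-BET. Each interval included the share of all genes. These comparisons use the same untreated list. With lists shortened to equal length they shared 4 and 6 genes in that order, of 7 untreated genes.

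Adding I-BET to RANKL left 12 of 13 BRD3 genes called (92.3%, 64.0% to 99.8%), against 76.5% of all genes, with Ddx11 in the combined list alone and Ddx46 in the RANKL list alone. Adding RANKL to I-BET left the same 13 genes in both lists (13 of 13, with an interval from 75.3% upward), against 93.9% of all genes. Each of these intervals included the share of all genes. With lists shortened to equal length, 5 of 5 RANKL genes and 10 of 13 I-BET genes were also called with both agents.

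**Figure D3:**
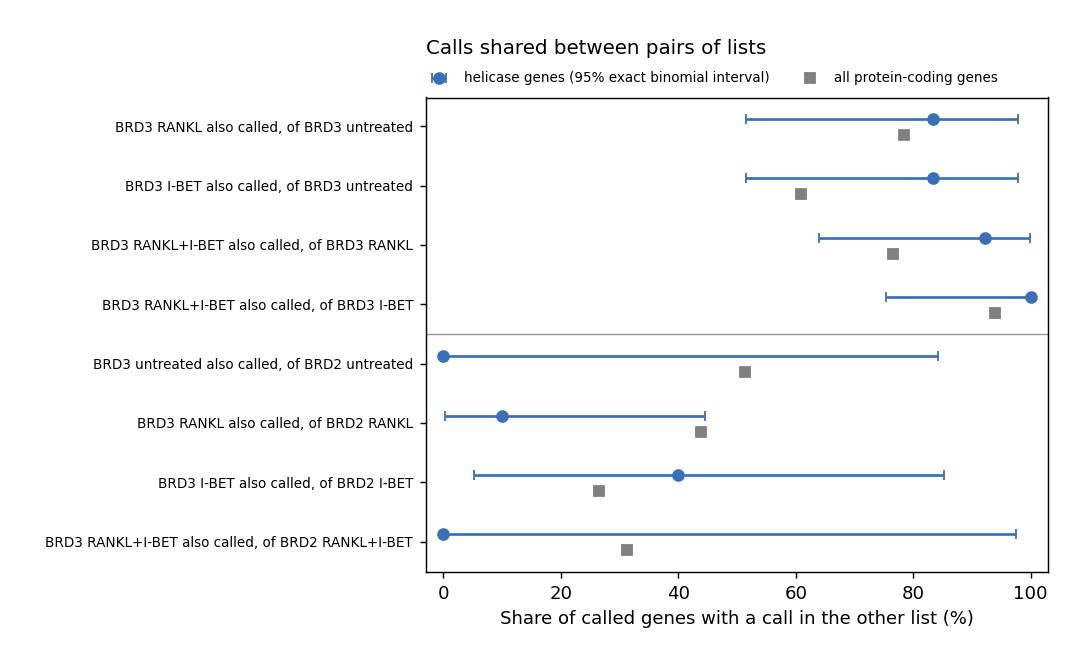
Share of called genes that were also called in the other list of a pair, in percent, for helicase genes (blue, exact 95% binomial interval) and all protein-coding genes (grey). The upper rows compare BRD3 between treatments, where helicase shares run from 83.3% to all 13 genes, and the lower rows give the share of BRD2 genes with BRD3 under the same treatment, from 0 of 2 to 2 of 5 genes.

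For BRD2 the same comparisons shared few calls, and the interval of each retained share included the share of all genes. RANKL against untreated cells shared Ddx6, 1 of 2 untreated genes, against 54.0% of all genes. Ddx5, Ddx20, Ddx23, Ddx51, Ddx52, Ddx60, Dhx9, Dhx15 and Dhx38 were called under RANKL alone, and Ddx55 in untreated cells alone. I-BET against untreated cells shared 0 of 2 untreated genes, an upper limit of 84.2%, against 47.2% of all genes. Ddx1, Ddx23, Ddx25, Ddx39b and Ddx47 were called under I-BET alone. In the presence of both agents, 0 of the 10 RANKL genes were called (upper limit 30.8%), against 9.63% of all genes. Ddx1 was called with both agents and also under I-BET, where 1 of 5 genes kept a call when RANKL was added, against 15.4% of all genes.

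Most regions lay over annotated starts. Starts were known for 47 of the 53 genes, and Ddx6, Ddx11, Ddx23, Ddx39a, Dhx38 and Dhx58 had no entry in the table of starts. Of 13 BRD2 regions at genes with a known start, 10 held a start, and of 45 BRD3 regions 41 did. The median distance from region midpoint to nearest start was 235 bp for BRD2 and 100 bp for BRD3. A call already required a region near a gene end, so short distances are partly set by the rule. No such values for all genes are given here, so whether these positions differ from those at other genes was not tested. The regions without a start were those of Ddx25 for both antibodies and the BRD2 regions of Ddx20 and Ddx47. Regions shared with another gene accounted for 4 of 18 BRD2 regions and 11 of 51 BRD3 regions, at Ddx5, Ddx25, Ddx51 and Dhx38 for BRD2 and at Ddx25, Ddx42 and Ddx54 for BRD3, and such a region cannot be given to one gene of the pair.

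**Figure D4:**
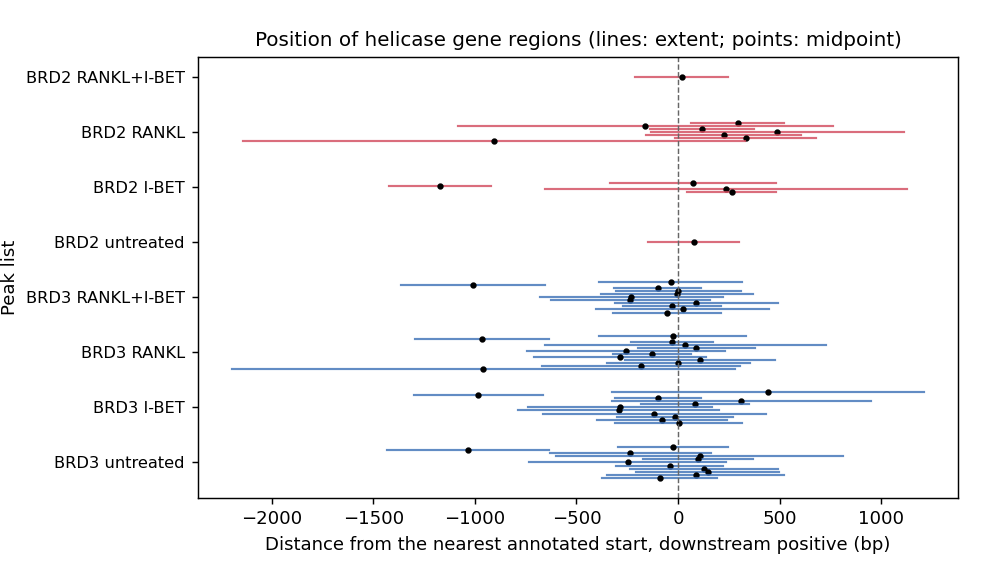
Extent (lines) and midpoint (points) of regions at helicase genes with a known start, in bp from the nearest annotated start with downstream positive, by peak list (BRD2 red, BRD3 blue). Most lines cross the start at 0, while the Ddx25 regions and the wide RANKL regions of Dhx9 have midpoints from 905 bp to 1172 bp upstream.

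At the 1 kb limit itself, the members just inside were Ddx25, whose BRD3 regions began 635 bp to 668 bp and whose BRD2 region under I-BET began 921 bp from the gene end, and Ddx6 at 703 bp and 767 bp. Just outside was Ddx25 with BRD2 under RANKL, in a region of 493 bp that began 1007 bp away. Next came the I-BET region of Ddx6 and the BRD3 regions of Ddx56. Ddx56, a nucleolar helicase gene with no call, had a BRD3 region in all 4 treatments, of 682 bp with RANKL and I-BET, 791 bp with RANKL, 821 bp with I-BET and 784 bp in untreated cells. Each held the annotated Ddx56 start and lay 1531 bp to 1706 bp from the end of the longer gene record, so Ddx56 has no call by the rule although a region covered its start. Of the 27 genes with no call (50.9%, against 78.8% of all genes), 5 had a region of some list within 10 kb of a gene end and 10 had none within 100 kb, Dhx36 being the farthest at 1101992 bp.

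The start sequences of helicase genes held more CpG and more often the ETS motif than those of all protein-coding genes. The median window held 24 CpG in 58 windows of 47 helicase genes, against 13 in 21263 windows of 17492 protein-coding genes. Among all genes the medians were 24 with BRD3, 22 with BRD2 and 9 with no call. Called genes in general were thus also high in CpG. The helicase medians in that order were 25, 29 and 23. The ETS motif was in 21 of 58 helicase windows (36.2%) and in 11.6% of all windows. It was in 8 of 15 windows of helicase genes with BRD3 (53.3%), 6 of 14 with BRD2 (42.9%) and 9 of 33 with no call (27.3%). Among all genes the shares for BRD3, BRD2 and no call were 19.2%, 23.8% and 8.98%. The GC box was in 58.6% of helicase windows and 46.2% of all windows, and the CCAAT box in 44.8% and 38.2%. The E-box was in 12.1% and 7.84%, the CRE in 10.3% and 2.23%, and the PU.1 box, which shares the letters GGAAG with the ETS motif, in 5.17% and 3.13%. Split into BRD3, BRD2 and no call, the CRE was in 0 of 15, 1 of 14 and 5 of 33 helicase windows. Its shares among all genes were 3.05%, 3.54% and 1.96%. The PU.1 box was in 0, 3 and 0 of these helicase windows, and in 2.38%, 4.05% and 3.2% among all genes. The GC box was in 12, 6 and 19 of them, and in 65.9%, 57.3% and 41.1% among all genes. For the CCAAT box the counts were 9, 6 and 13, beside 35.8%, 34.0% and 38.9% among all genes. For the E-box they were 2, 2 and 4, beside 10.7%, 11.2% and 6.96%. No helicase window held the palindromic element, which was in 0.673% of all windows. These are counts of letters and carry no test.

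Genes related to the family were called in some list at 6 of 18 (helicases with other names) and 14 of 30 (helicase cofactors), against 21.2% of all genes. Of the helicases with other names, 1 to 3 of 18 had BRD3 in each list. The shares were 5.56% with RANKL and I-BET, 16.7% with RANKL, 5.56% with I-BET and 11.1% in untreated cells. Those of all genes were 11.9%, 13.7%, 9.73% and 14.0%. Upf1, the helicase of nonsense-mediated decay, had BRD3 in all 4 lists, as did 7.65% of all genes. The initiation factor helicase gene Eif4a2 had BRD3 under RANKL and in untreated cells and in neither list with I-BET. That pattern was held by 1.39% of all genes. BRD2 was called at Eif4a2 under RANKL alone. Of 30 genes of helicase cofactors, BRD3 was called at 9 with RANKL and I-BET, 8 with RANKL, 5 with I-BET and 8 in untreated cells, against 11.9%, 13.7%, 9.73% and 14.0% of all genes, with the export adaptor gene Alyref and the translation genes Eif4b, Eif4g1 and Eif4h in all 4. As a check of the cell type, 10 of 12 macrophage marker genes had a region in some list, against 21.2% of all genes. BRD3 was at 0 of them with RANKL and I-BET, 8 with RANKL, 1 with I-BET and 7 in untreated cells, beside those same shares of all genes. BRD2 was at 2, 6, 5 and 2 of them in that order, against 0.978%, 6.21%, 3.79% and 2.26% of all genes. Of the markers of lymphocytes, of osteoblasts and stroma and of erythroid cells, 0 of 7, 0 of 6 and 0 of 4 had a region in some list.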

How the data were processed

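BRD2 and BRD3 ChIP-seq gave 1 peak list for each antibody and treatment, 8 in all; the 4 input libraries have no list and were not used. Per the submitters' processing notes, reads were handled with MACS2 2.1.1.20160309, Bowtie2 2.3.4.1 and FastQC, on build mm10 (GRCm38); no settings come with them. Each region of the deposited lists carries the authors' score, and the peak names in the deposited files show that nearly all regions join 3 peaks (98.41% to 99.96%). No source used here explains those joined peak sets. Depth is unknown, so only presence, position, width and score within a list were used.

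Genes came from a RefSeq table of GRCm38.p6 and starts and sequences from RefSeq promoter windows of that build. A call needed 1 bp or more of a region inside 1 kb around a gene end; the overlap step was tested on simulated regions. Shares have exact (Clopper-Pearson) 95% intervals, computed with SciPy 1.17.1 in Python 3.11.15. Every called member could be named, and all that differed within a comparison were. Positions, widths and scores were set for members with BRD2 alone, with 1 treatment of an antibody, and the 5 widest and 5 highest-scoring regions of each antibody. Sequences were set for some of the members called most often or changing most between treatments. The Eif4a2, Upf1 and cofactor examples, the Ddx56 near miss and widths of members outside that rule were chosen after their values were seen. Members, role groups and lists were chosen with earlier results of these data known. Alternatives were windows of 500 bp and 2 kb, gene starts alone, the highest-scoring 50% of regions, lists shortened to the shortest of the antibody (245 for BRD2, 2232 for BRD3), and region midpoints inside the window.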

Additional observations from a re-analysis of the deposited data

How the results depend on the processing

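Windows of 500 bp or 2 kb, gene starts alone and region midpoints changed few of the 20 counts by more than 1.5 times. With 500 bp, BRD2 in untreated cells had 1 helicase gene, BRD2 under RANKL and untreated shared 0, and BRD2 and BRD3 under I-BET shared 1. With 2 kb, BRD2 under I-BET and untreated shared 1 and BRD2 and BRD3 under RANKL shared 2. With starts alone, BRD2 in untreated cells had 1 gene and BRD2 under RANKL and untreated shared 0. With midpoints these were 1 and 0, and BRD2 and BRD3 under I-BET shared 1. The genes that moved were Ddx6, Ddx25 and Ddx56, besides those with no known start.

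Ranking by score moved more. With the top 50% of each list, BRD2 was called at 0 helicase genes with RANKL and I-BET, 4 with RANKL, 2 with I-BET and 0 in untreated cells, and BRD3 at 7, 5, 7 and 6 in that order. The shares of all genes were 0.493%, 3.13%, 1.85% and 1.03% for BRD2 and 6.12%, 6.77%, 5.03% and 7.05% for BRD3. BRD3 lists then shared 3 genes for RANKL and untreated, 4 for I-BET and untreated, 3 for both agents and RANKL, and 5 for both agents and I-BET. BRD2 lists shared 0 for RANKL and untreated and 0 for both agents and I-BET, and BRD2 and BRD3 shared 0 under RANKL and 0 under I-BET. With lists shortened to equal length, BRD2 was called at 1 with both agents, 1 with RANKL, 1 with I-BET and 0 in untreated cells, against 0.978%, 0.877%, 0.832% and 0.85% of all genes. BRD3 was called at 10, 5, 13 and 7 in that order, against 9.54%, 7.98%, 9.73% and 8.57%. BRD3 shared 4 for RANKL and untreated, 6 for I-BET and untreated and 5 for both agents and RANKL. BRD2 shared 0 for RANKL and untreated and 0 for both agents and I-BET, and BRD2 and BRD3 shared 0 under RANKL and 1 under I-BET. The near equality of the BRD3 counts across treatments thus held for the full lists and not for lists of equal length. Shortened lists hold fewer regions by construction. No paired analysis was possible because each group had 1 library. With depth unknown, an absent call does not show absent binding.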
